A study of Mus musculus with 6 samples.

Results

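Cells answer a load of misfolded protein, a shortage of amino acids or heat with 3 gene programmes that overlap. In the integrated stress response, kinases phosphorylate the translation initiation factor eIF2 alpha, which slows protein synthesis while favouring translation of the transcription factor ATF4, and ATF4 with its partner CHOP switches on genes of amino acid synthesis and of stress signalling. In the unfolded protein response, sensors in the membrane of the endoplasmic reticulum induce chaperones and degradation factors through XBP1 and ATF6. In the heat shock response, the transcription factor HSF1 induces chaperones of the cytosol and mitochondria. Macrophages secrete large amounts of protein and meet such loads during inflammation.

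The genes described here are 33 members of these programmes, chosen by name: 12 of the integrated stress response, 9 of the unfolded protein response and 12 of the heat shock response. Of the 33, 31 were measured by a named probe set, out of 25206 probe sets in all. Phgdh, an enzyme of serine synthesis, and Hsp90ab1, a cytosolic HSP90, had no probe set with their name in the annotation used and were not analysed here.

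RNA was measured on Affymetrix whole-transcript arrays in peritoneal macrophages taken from Tet2-/- mice and from wild-type littermates. The mice of both groups were C57BL/6J and had been injected with thioglycollate, an irritant that draws macrophages into the peritoneal cavity, 4 days earlier. Cells of both groups were plated in culture medium with serum and received no stimulus, and RNA was extracted 10 h later. Each group held 3 arrays, called biological replicates 4, 5 and 6 in the labels, which do not state whether mice were pooled or shared. The p-values therefore describe the spread between arrays, which may be technical. Tet2 encodes an enzyme that oxidises methylated cytosine in DNA. The labels name neither the allele nor the age or sex of the mice. Total RNA of plated cells was measured, so fewer cells of a type and less RNA per cell cannot be told apart.

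Groups follow the sample titles. The genotype field of the labels contradicts the title for 4 of the 6 samples, and Tet2 itself did not separate the groups (difference -0.12, 95% confidence interval -0.56 to 0.32), so each direction below is that of the libraries labelled Tet2-/- by title. Array medians ran from 2.76 to 2.93 on the log2 scale, and the array of Tet2-/- replicate 6 stood apart, with a mean correlation with the other arrays of 0.982 against 0.986 to 0.989 for the other 5. The 8 measured macrophage markers, among them Cd68, Csf1r, Adgre1 and Itgam, all lay above the median probe set. All levels below are log2 values as deposited, and each difference is the Tet2-/- mean minus the wild-type mean.

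No member changed by the test across all probe sets. With limma, 0 of 31 members passed a Benjamini-Hochberg adjusted p of 0.05, as did 0% of all 25206 probe sets, of which 910 had an unadjusted p under 0.05. Wfs1 stood out by size and was lower in every Tet2-/- array than in any wild-type array. Of the 31 members, 15 had a positive and 16 a negative difference, and their median was -0.05, against 0 over all probe sets. The 30 members other than Wfs1 differed by at most 0.487, and their 95% confidence intervals stayed between -0.84 and 0.97.

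Groups did not overlap for 3 of the 31 members. Higher in all Tet2-/- arrays was 1 member, Hspd1, where 3.33% of all probe sets were. Lower in all Tet2-/- arrays were 2 members, Wfs1 and Hsph1, where 4.07% of all probe sets were. At an unadjusted p under 0.05 there was 1 higher member, Hspb1 (1.71% of all probe sets), and 1 lower member, Wfs1 (1.9% of all probe sets). This count of 2 was 6 without Tet2-/- replicate 6 (Ddit3, Herpud1, Pdia4, Wfs1, Hspa1b and Dnaja1), where the share over all probe sets was 9.87% in place of 3.61%. It was 1 (Wfs1) without wild-type replicate 5 or without wild-type replicate 6, where the shares over all probe sets were 2.51% and 2.8%. With groups taken from the genotype field it was 1 (Hspb1, in the opposite direction), against 1.64% of all probe sets.

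**Figure D1:**
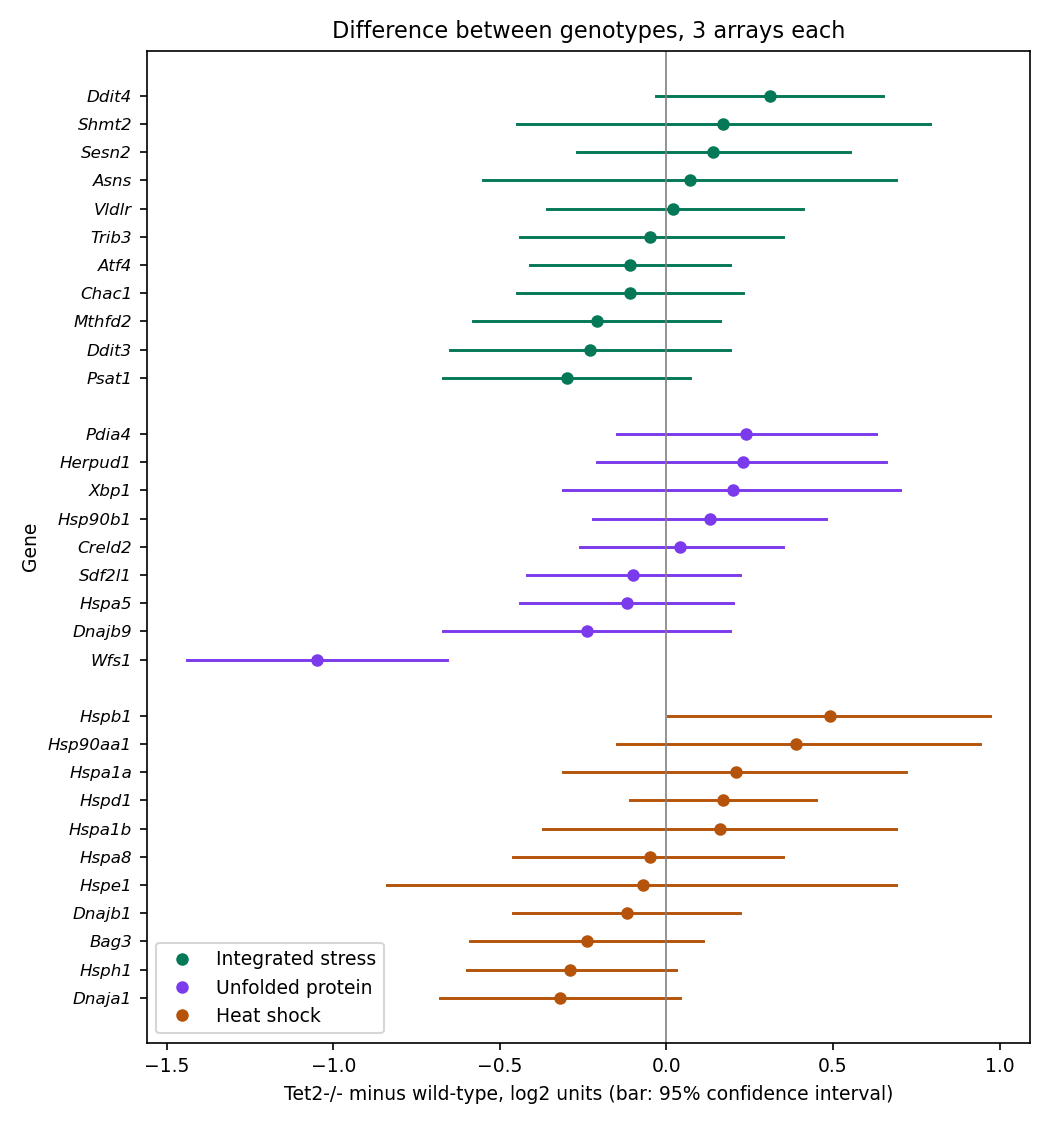
Tet2-/- minus wild-type difference of each measured member in log2 units (point) with its 95% confidence interval (bar), 3 arrays per genotype, grouped by programme and sorted within it. Wfs1, at -1.05, lies apart from the other 30 members, whose intervals include or nearly touch 0.

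The arms had medians near 0. The integrated stress arm had 5 higher and 6 lower members (median -0.05, range -0.3 to 0.31), the unfolded protein arm 5 higher and 4 lower (median 0.04, range -1.05 to 0.24) and the heat shock arm 5 higher and 6 lower (median -0.05, range -0.32 to 0.49). Over all probe sets 49.2% were higher. When single arrays were left out, the integrated stress median stayed negative, from -0.16 to -0.02. The signs of the heat shock and unfolded protein medians rested on single arrays. Leaving out Tet2-/- replicate 4 gave a heat shock median of 0.14, leaving out Tet2-/- replicate 6 gave 0.10 and leaving out wild-type replicate 6 gave 0.16. The unfolded protein median became 0.12 when wild-type replicate 4 was dropped and -0.02 when wild-type replicate 6 was dropped. The median absolute difference, which was not tested between arms, was 0.14 in the integrated stress arm, 0.197 in the unfolded protein arm and 0.207 in the heat shock arm. It was 0.107 over all probe sets and 0.113 over the brighter ones. In lists of other genes of the same programmes, counted further below, it was 0.11, 0.0833 and 0.06 in turn, so the larger values of the members did not extend to those lists. Within groups, the median SD over members was 0.255 in Tet2-/- and 0.178 in wild-type for the integrated stress arm, 0.226 and 0.139 for the unfolded protein arm, and 0.344 and 0.144 for the heat shock arm. Over all probe sets it was 0.2 in Tet2-/- and 0.153 in wild-type. For the other genes of the 3 programmes in turn it was 0.221 and 0.166, 0.256 and 0.175, and 0.153 and 0.139.

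Each arm was also followed through the arrays as the mean deviation of its members from their own 6-array mean. For replicates 4, 5 and 6 in turn, the integrated stress arm averaged 0.18, -0.11 and -0.11 in Tet2-/- arrays and 0.06, -0.11 and 0.10 in wild-type arrays. The unfolded protein arm averaged 0.05, -0.02 and -0.14 in Tet2-/- arrays and 0.09, 0.02 and 0 in wild-type arrays. The heat shock arm averaged -0.01, -0.02 and 0.07 in Tet2-/- arrays and 0.04, -0.13 and 0.06 in wild-type arrays. Genotypes overlapped in all 3 arms, and no array was the highest or the lowest in all of them.

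**Figure D2:**
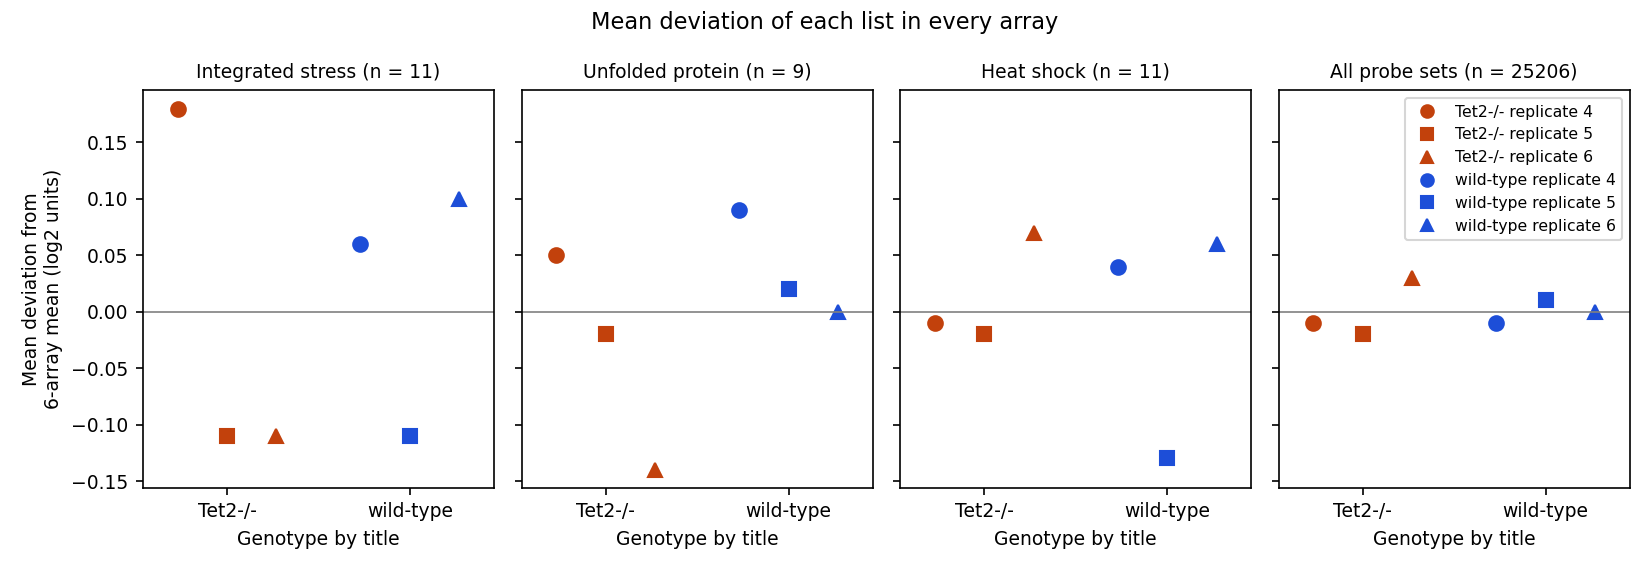
Mean deviation from the 6-array mean, in log2 units, of the members of each programme and of all probe sets, in each array, with Tet2-/- left of wild-type. Points of the 2 genotypes overlap in each programme, and the integrated stress arm spans the widest range, -0.11 to 0.18.

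Wfs1 encodes wolframin, a glycoprotein of the endoplasmic reticulum membrane that takes part in calcium handling and restrains ATF6 signalling, and whose loss causes Wolfram syndrome. Its log2 level was 6.01, 5.85 and 6.33 in Tet2-/- replicates 4, 5 and 6, against 7.14, 6.88 and 7.32 in wild-type replicates 4, 5 and 6. The highest Tet2-/- array thus lay below the lowest wild-type array, and the spread was alike in both groups (SD 0.244 in Tet2-/- and 0.221 in wild-type). The difference was -1.05 with a standard error of 0.174 and a 95% confidence interval of -1.44 to -0.66, which is 0.483-fold. It had an unadjusted p of 0.000205, the 8th smallest of the 25206 probe sets, and did not pass after adjustment (limma adjusted p = 0.483). Leaving out single arrays moved it only between -1.18 and -0.94. With groups taken from the genotype field it was 0.19.

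The wild-type replicates 4 and 6 and the Tet2-/- replicate 6 were the higher arrays of Wfs1 within their groups, so the array that stood apart in its correlation was, for this gene, the Tet2-/- array nearest to wild-type. Without it the difference was -1.18 (limma adjusted p = 0.0574). Marker lists of other cells of the peritoneal cavity were read in the same arrays. The summed linear level of 11 B-cell markers was 113 to 392 in Tet2-/- arrays and 140 to 184 in wild-type arrays, with 9 higher and 2 lower and 7 of the 11 below the median probe set. The lowest sum, 113, was that of Tet2-/- replicate 6. The sum of 10 markers of the resident large peritoneal macrophage was 392 to 1220 in Tet2-/- arrays and 358 to 500 in wild-type arrays, with 9 higher and 1 lower. Their mean deviations were 0.68, 0.99 and -0.5 in Tet2-/- replicates 4, 5 and 6, against -0.18, -0.57 and -0.42 in wild-type. At an unadjusted limma p under 0.05, 5 of the 10 were higher and 0 lower, against 1.71% and 1.9% of all probe sets. Of the B-cell markers 3 were higher and 1 lower at that level, and of the granulocyte markers 1 and 1. The sum of 12 granulocyte markers was 234 to 277 in Tet2-/- arrays and 218 to 254 in wild-type arrays, with 7 higher and 5 lower and 9 of the 12 below the median probe set.

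A pair of markers in these lists, Cd22 and Siglecf, was lower without overlap, as Wfs1 was. They are named after their values were seen. Other markers of the same lists were higher without overlap: Cd79b (difference 1.55), Cd5l (0.74) and Mpo (0.46). Of the B-cell markers 9 were higher and 2 lower. Epx and Prg2, granulocyte markers below the median probe set, differed by 0.03 and -0.01. Cd22, a B-cell receptor inhibitor, was at 5.50, 5.29 and 5.23 in Tet2-/- arrays, against 6.21, 6.15 and 6.07 in wild-type arrays (difference -0.8, standard error 0.134, limma adjusted p = 0.483). Siglecf, a lectin of eosinophils, was at 4.65, 3.58 and 4.12 in Tet2-/- arrays, against 5.37, 5.58 and 5.02 in wild-type arrays (difference -1.21, standard error 0.263, limma adjusted p = 0.879). The part of these cells in the Wfs1 difference was not tested.

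Near the start of Wfs1 the 250 bases before the annotated RefSeq start are shown, because it is the member with the largest difference. They lie at chr5:36988983-36989232 (GRCm38.p6, minus strand). The stretch holds none of the motifs searched here, so all of it is in lower case.
Wfs1: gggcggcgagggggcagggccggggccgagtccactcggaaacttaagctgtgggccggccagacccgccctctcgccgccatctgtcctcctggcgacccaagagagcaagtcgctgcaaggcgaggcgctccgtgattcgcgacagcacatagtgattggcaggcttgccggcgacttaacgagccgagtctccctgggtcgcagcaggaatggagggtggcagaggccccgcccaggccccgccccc

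The motifs were searched on both strands in windows of 300 bases, 250 before and 50 after each start. They were the endoplasmic reticulum stress elements ERSE (CCAAT and CCACG, 9 bases apart) and ERSE-II (ATTGG and CCACG, 1 base apart), which ATF6 binds with NF-Y, the XBP1 site UPRE (TGACGTGG), the ATF4 site CARE (TGATGNAA) and the heat shock element HSE (GAA, TTC and GAA, each 2 bases apart). Windows were found for 30 of the 33 members, Hsp90aa1, Hsp90ab1 and Hspa8 being without one in the table. ERSE was found in 3 of 9 unfolded protein members (Hspa5, Creld2 and Hsp90b1), against 0.137% of 27025 genes with a window, and ERSE-II in 1 of 9 (Herpud1), against 0.0444%. CARE was found in 4 of 12 integrated stress members (Trib3, Asns, Chac1 and Vldlr) and in Herpud1, against 4.51%, and HSE in 3 of 9 heat shock members (Hsph1, Hspd1 and Hspe1), against 0.662%. UPRE was in no member's window, against 0.714%. The members were chosen by name as genes of these programmes, so the shares describe the lists and test nothing. A match is a run of letters and is not evidence of binding in these cells.

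**Figure D3:**
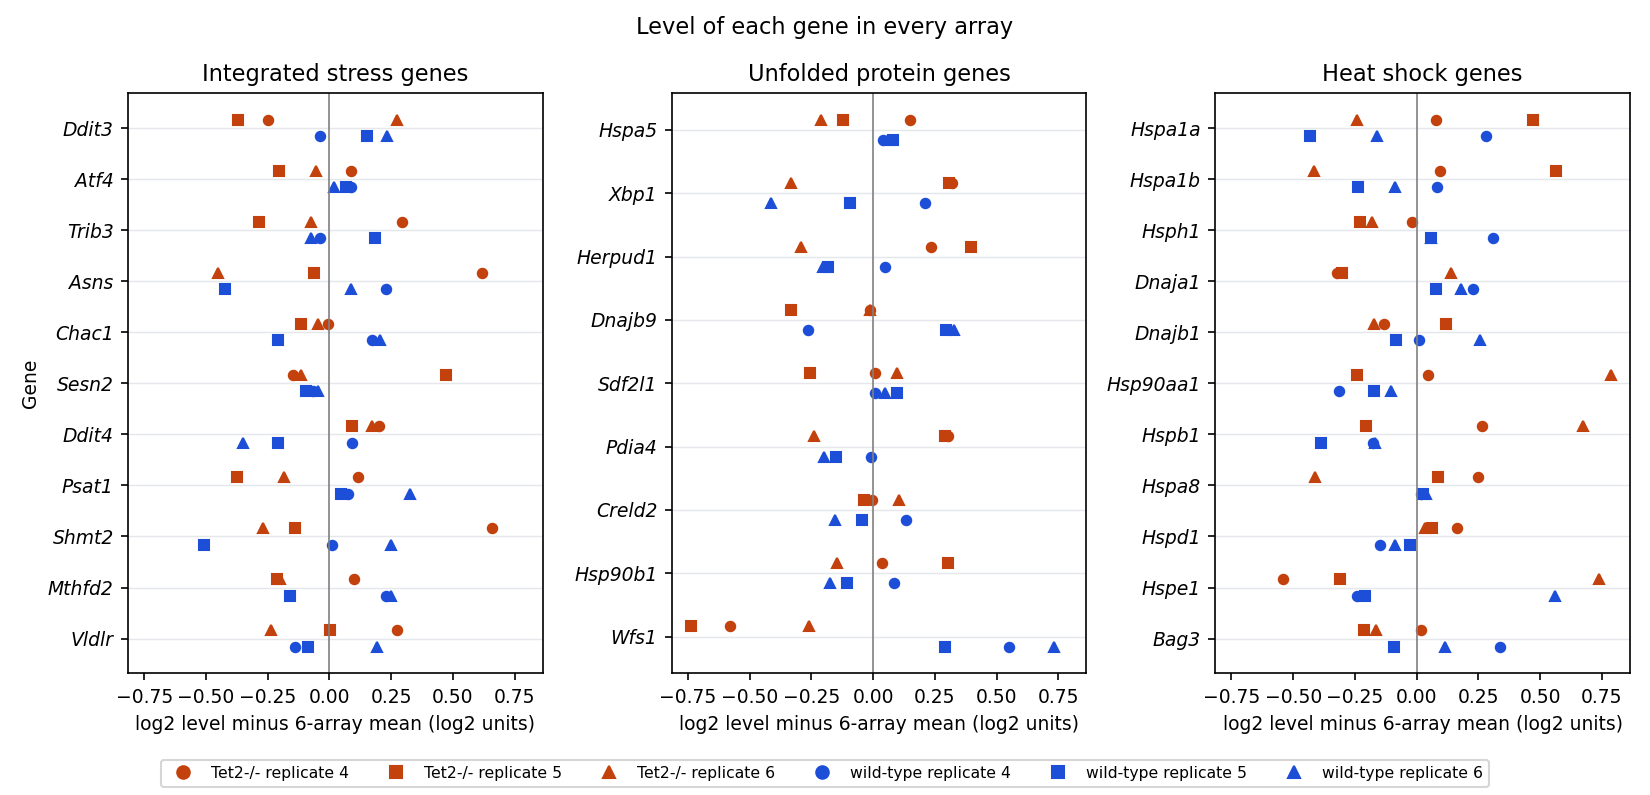
Deviation of each gene's log2 level from its 6-array mean (log2 units) in every array, by programme, with Tet2-/- points above wild-type points in each row and replicates 4, 5 and 6 as circles, squares and triangles. Wfs1 separates the genotypes by the widest gap, and Hspe1 places both replicate 6 arrays to the right of the other 4.

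Among the regulators of the integrated stress response, Atf4, its central transcription factor, was at 8.0, 7.71 and 7.86 in Tet2-/- arrays, against 8.0, 7.98 and 7.93 in wild-type arrays. The groups overlapped, and the difference was -0.11 (95% confidence interval -0.41 to 0.19). Atf4 is regulated largely at translation, which RNA levels do not show. Ddit3, which encodes CHOP, was at 5.29, 5.17 and 5.81 in Tet2-/- arrays, against 5.50, 5.69 and 5.77 in wild-type arrays. Tet2-/- replicates 4 and 5 lay below every wild-type array and replicate 6 above every one, and the difference was -0.23 (standard error 0.185), or -0.42 without Tet2-/- replicate 6. Trib3, a pseudokinase that feeds back on ATF4 and CHOP, was at 4.15, 3.57 and 3.78 in Tet2-/- arrays, against 3.82, 4.04 and 3.78 in wild-type arrays, with the highest and the lowest array both Tet2-/-.

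None of the enzymes that ATF4 induces for amino acid and one-carbon metabolism passed the test. Asns, asparagine synthetase, was at 6.23, 5.55 and 5.16 in Tet2-/- arrays, against 5.84, 5.19 and 5.70 in wild-type arrays (difference 0.07, standard error 0.275). Shmt2, the mitochondrial serine hydroxymethyltransferase, was at 5.35, 4.55 and 4.42 in Tet2-/- arrays, against 4.7, 4.18 and 4.94 in wild-type arrays (difference 0.17, standard error 0.273). In both genes Tet2-/- replicate 4 was the highest array, and Tet2-/- replicate 6 and wild-type replicate 5 were the lowest pair. Psat1, which makes phosphoserine, was at 5.43, 4.94 and 5.13 in Tet2-/- arrays, against 5.39, 5.36 and 5.64 in wild-type arrays (difference -0.3, standard error 0.164). Mthfd2, a mitochondrial folate enzyme, was at 6.07, 5.76 and 5.77 in Tet2-/- arrays, against 6.20, 5.81 and 6.22 in wild-type arrays (difference -0.21, standard error 0.164). The confidence intervals of these 4 genes included 0, and their signs were mixed.

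For Asns, Psat1, Shmt2, Mthfd2 and Chac1, 5 of the 11 measured members of the arm, the 3 highest arrays were Tet2-/- replicate 4 and wild-type replicates 4 and 6. The same 3 arrays were highest for 3.66% of all probe sets and for 5.04% of the brighter ones, for 0 of 9 unfolded protein members and for 1 of 11 heat shock members (Bag3). The order among the 3 arrays differed between the genes. The set was noticed in the data, crosses the genotypes and was not tested.

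Chac1, a glutathione-degrading enzyme induced through ATF4, was at 3.55, 3.44 and 3.51 in Tet2-/- arrays, against 3.73, 3.35 and 3.76 in wild-type arrays. All Tet2-/- arrays lay within the wild-type range. Ddit4, which encodes the mTORC1 inhibitor REDD1, had the largest positive difference of the arm, with 2.98, 2.87 and 2.95 in Tet2-/- arrays, against 2.87, 2.57 and 2.43 in wild-type arrays (difference 0.31, 95% confidence interval -0.03 to 0.65). The groups met at 2.87, and the mean over the arrays, 2.78, lay below the median probe set of 2.81, so these values say little about the transcript's level. Sesn2, a leucine sensor that also restrains mTORC1, was at 3.69, 4.31 and 3.72 in Tet2-/- arrays, against 3.77, 3.74 and 3.79 in wild-type arrays. Its difference of 0.14 lay in Tet2-/- replicate 5 and was -0.06 without that array. Vldlr, a lipoprotein receptor that ATF4 can induce, was at 2.60, 2.33 and 2.09 in Tet2-/- arrays, against 2.19, 2.24 and 2.52 in wild-type arrays, and lay below the median probe set, where array values say little about a transcript's level.

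Stretches before the start of Asns and Chac1 are shown because both carry the ATF4 motif while their levels overlapped between genotypes. Capitals mark CARE on either strand. The Asns stretch lies at chr6:7693210-7693269 (GRCm38.p6, minus strand) and the Chac1 stretch at chr2:119351022-119351082 (plus strand).
Asns: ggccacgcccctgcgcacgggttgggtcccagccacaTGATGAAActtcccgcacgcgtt
Chac1: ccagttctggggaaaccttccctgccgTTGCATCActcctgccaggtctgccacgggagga

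In the unfolded protein arm, Hspa5, which encodes the chaperone BiP that holds the stress sensors inactive, was at 9.53, 9.26 and 9.17 in Tet2-/- arrays, against 9.42, 9.46 and 9.44 in wild-type arrays. The wild-type arrays fell inside the Tet2-/- range, and the difference was -0.12 (95% confidence interval -0.44 to 0.20). Hsp90b1, the HSP90 of the endoplasmic reticulum, was at 9.44, 9.71 and 9.26 in Tet2-/- arrays, against 9.49, 9.30 and 9.23 in wild-type arrays (difference 0.13, standard error 0.157). Neither of these luminal chaperones separated the groups. Pdia4, a protein disulfide isomerase, was at 7.36, 7.35 and 6.82 in Tet2-/- arrays, against 7.05, 6.91 and 6.86 in wild-type arrays. Tet2-/- replicates 4 and 5 lay above and replicate 6 below every wild-type array, for a difference of 0.24 (standard error 0.173) that was 0.41 without replicate 6.

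Xbp1, the transcription factor that the sensor IRE1 activates by splicing, was at 8.38, 8.37 and 7.73 in Tet2-/- arrays, against 8.27, 7.97 and 7.65 in wild-type arrays (difference 0.20, standard error 0.222). These values are of the whole gene and do not tell spliced from unspliced RNA. Herpud1, a component of the degradation machinery of the endoplasmic reticulum, was at 6.76, 6.92 and 6.23 in Tet2-/- arrays, against 6.57, 6.34 and 6.32 in wild-type arrays (difference 0.23, standard error 0.191, and 0.43 without Tet2-/- replicate 6). In Xbp1, Herpud1, Pdia4 and Hsp90b1 the 3 highest arrays were Tet2-/- replicates 4 and 5 and wild-type replicate 4, as in 10.2% of all probe sets and 18.7% of the brighter ones. The same held for 2 of 11 heat shock members (Hspa1a and Hspa1b) and 0 of 11 integrated stress members. It held for 4 of 8 macrophage markers (Csf1r, Adgre1, Itgam and Cd14) and for 4 of 10 resident macrophage markers (Icam2, Alox15, Prg4 and Selp). It also held for 2 of 11 B-cell markers (Ms4a1 and Blk), 1 of 12 granulocyte markers (Csf3r) and 1 of 8 mast cell markers (Hdc). The set was noticed in the data, and the part of these cells in the 4 genes was not tested.

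The remaining 3 members did not pass the test. Dnajb9, a co-chaperone of BiP, was at 7.25, 6.93 and 7.25 in Tet2-/- arrays, against 7.0, 7.56 and 7.59 in wild-type arrays (difference -0.24, standard error 0.189, and -0.43 without wild-type replicate 4). After Wfs1 this was the member of the arm with the largest absolute difference. Sdf2l1, a partner of BiP, was at 7.16, 6.90 and 7.25 in Tet2-/- arrays, against 7.16, 7.25 and 7.20 in wild-type arrays (difference -0.1, standard error 0.139). Creld2, a secreted product of the response, was at 6.09, 6.06 and 6.20 in Tet2-/- arrays, against 6.23, 6.05 and 5.94 in wild-type arrays (difference 0.04, standard error 0.135). All 3 overlapped between groups, and without Wfs1 the arm's median difference was 0.09 in place of 0.04.

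The start regions of Hspa5 and Herpud1 are shown because they hold the ATF6 motifs that Wfs1's stretch lacks. Capitals mark ERSE in Hspa5, and CARE followed by ERSE-II in Herpud1. The stretches lie at chr2:34771970-34772060 and chr8:94386299-94386399 (GRCm38.p6, both plus strand).
Hspa5: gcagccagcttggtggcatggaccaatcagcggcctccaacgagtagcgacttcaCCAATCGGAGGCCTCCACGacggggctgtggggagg
Herpud1: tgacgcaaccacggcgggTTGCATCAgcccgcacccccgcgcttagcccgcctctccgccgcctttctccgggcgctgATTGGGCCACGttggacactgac

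In the heat shock arm, the constitutive HSP70 gene Hspa8 was at 11.08, 10.92 and 10.42 in Tet2-/- arrays, against 10.85, 10.86 and 10.87 in wild-type arrays. The wild-type arrays had an SD of 0.01 while the Tet2-/- arrays spread by an SD of 0.344, and the difference was -0.05, or 0.14 without Tet2-/- replicate 6. The stress-inducible HSP70 genes Hspa1a and Hspa1b are near-identical neighbours, so that their probe sets may not tell them apart. Hspa1a was at 3.37, 3.76 and 3.05 in Tet2-/- arrays, against 3.57, 2.86 and 3.13 in wild-type arrays, and Hspa1b at 2.97, 3.44 and 2.46 in Tet2-/- arrays, against 2.96, 2.64 and 2.79 in wild-type arrays. Both were highest in Tet2-/- replicate 5, with differences of 0.21 (standard error 0.229) and 0.16 (standard error 0.232).

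Hsph1, which encodes the nucleotide exchange factor HSP110 that works with HSP70, was at 5.95, 5.74 and 5.79 in Tet2-/- arrays, against 6.28, 6.03 and 6.03 in wild-type arrays. Every Tet2-/- array lay below every wild-type array, for a difference of -0.29 that did not pass the test (95% confidence interval -0.6 to 0.03, limma adjusted p = 0.998). The HSP40 gene Dnaja1 was at 4.51, 4.53 and 4.97 in Tet2-/- arrays, against 5.06, 4.91 and 5.01 in wild-type arrays. Only Tet2-/- replicate 6 reached the wild-type range, and the difference was -0.32 (standard error 0.158), or -0.47 without it. Dnajb1, another HSP40 gene, was at 5.50, 5.75 and 5.46 in Tet2-/- arrays, against 5.64, 5.55 and 5.89 in wild-type arrays (difference -0.12). Bag3, an HSP70 co-chaperone of selective autophagy, was at 6.26, 6.03 and 6.08 in Tet2-/- arrays, against 6.58, 6.15 and 6.36 in wild-type arrays (difference -0.24, standard error 0.152). None of these 4 genes passed the test.

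Hspb1, the small heat shock protein HSP27 in man, was at 3.07, 2.60 and 3.48 in Tet2-/- arrays, against 2.63, 2.42 and 2.64 in wild-type arrays. Its difference of 0.49 was the largest positive one of the members (95% confidence interval 0.0036 to 0.97), and it did not pass the test (limma adjusted p = 0.998). Tet2-/- replicate 5 lay within the wild-type range. The mean of Hspb1 over the arrays, 2.81, was not above the median probe set, so its values say little about the transcript's level. Hsp90aa1, the inducible cytosolic HSP90, was at 3.46, 3.17 and 4.20 in Tet2-/- arrays, against 3.10, 3.24 and 3.31 in wild-type arrays. Its difference of 0.39 (standard error 0.241) was 0.10 without Tet2-/- replicate 6, the array that was highest for both genes.

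The mitochondrial chaperonin genes Hspd1 (HSP60) and Hspe1 (HSP10), whose products form one folding chamber, did not follow each other. Hspd1 was at 7.46, 7.36 and 7.33 in Tet2-/- arrays, against 7.15, 7.27 and 7.21 in wild-type arrays. All Tet2-/- arrays lay above all wild-type arrays by a small margin. The 95% confidence interval of the difference, 0.17, ran from -0.11 to 0.45 (limma adjusted p = 0.998). Hspe1 was at 6.25, 6.48 and 7.53 in Tet2-/- arrays, against 6.55, 6.58 and 7.35 in wild-type arrays. Its level was high in both replicate 6 arrays and not in the other 4, and its 95% confidence interval of -0.84 to 0.69 was the widest of the members.

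These genes lie head to head on chromosome 1 and share a start region, shown because overlapping heat shock elements lie in the windows of both. The same 30 bases, chr1:55088053-55088082 (GRCm38.p6), are given on the plus strand for Hspe1 and on the minus strand for Hspd1, with HSE in capitals. The window of another annotated start of Hspd1 holds no HSE. In Hsph1 the element TTCTGGAAAGTTC lies just after the start.
Hspe1: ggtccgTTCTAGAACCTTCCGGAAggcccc
Hspd1: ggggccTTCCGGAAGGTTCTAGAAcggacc

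**Figure D4:**
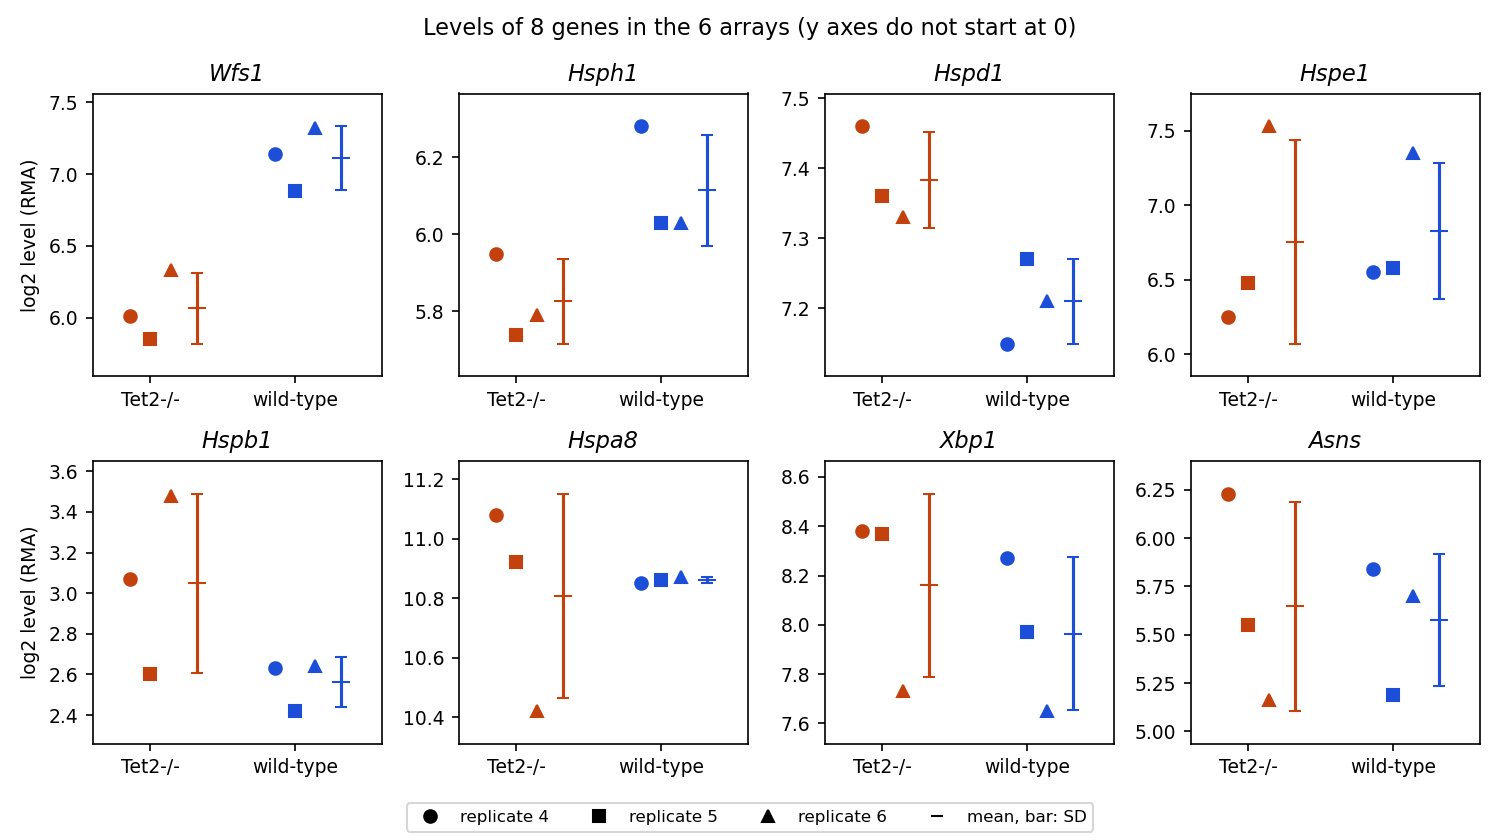
Log2 level of 8 members in each array, Tet2-/- left of wild-type, with the group mean and SD (n = 3) beside the points. Wfs1, Hsph1 and Hspd1 do not overlap between genotypes, Hspe1 is high in both replicate 6 arrays, and Hspa8 and Xbp1 are lower in Tet2-/- replicate 6 than in the other Tet2-/- arrays.

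Other genes of the 3 programmes, 119 measured of 126 listed, were counted in the same way. In the integrated stress list 17 of 37 measured genes were higher and 20 lower (median -0.01), with 1 higher and 2 lower at an unadjusted p under 0.05, where 1.71% of all probe sets were higher and 1.9% lower. In the unfolded protein list 18 of 41 were higher and 23 lower (median -0.03), with 0 higher and 1 lower. In the heat shock list 24 of 41 were higher and 17 lower (median 0.03), with 0 at that level. None passed after adjustment over all probe sets.

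Atf3, a transcription factor induced downstream of ATF4 and by inflammatory signals, was at 9.39, 9.15 and 9.39 in Tet2-/- arrays, against 9.68, 9.84 and 9.80 in wild-type arrays (difference -0.46, standard error 0.134, limma adjusted p = 0.998). Gpt2, a mitochondrial alanine transaminase, was at 3.60, 3.63 and 3.86 in Tet2-/- arrays, against 4.44, 4.21 and 4.07 in wild-type arrays (difference -0.54, standard error 0.15, limma adjusted p = 0.998). Nupr1, a stress-induced chromatin protein, was at 7.70, 7.79 and 7.61 in Tet2-/- arrays, against 7.24, 7.09 and 7.54 in wild-type arrays (difference 0.41, standard error 0.152, limma adjusted p = 0.998). In these 3 genes the groups did not overlap, as in 3.33% of all probe sets for higher and 4.07% for lower ones, and their signs were mixed. Pck2, a mitochondrial enzyme that feeds serine and glucose synthesis, differed by 0.33 and overlapped.

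In the unfolded protein list Edem2, which trims sugars from misfolded glycoproteins, was at 7.15, 6.90 and 6.77 in Tet2-/- arrays, against 7.30, 7.52 and 7.25 in wild-type arrays (difference -0.42, standard error 0.151). Its groups did not overlap, nor did those of Ssr1, a subunit of the translocon-associated complex, at a difference of 0.21. Fkbp11 and Manf, a foldase and a secreted factor of the response, differed by -0.51 and -0.23 and overlapped. In the heat shock list Fkbp5, an HSP90 co-chaperone, and Dnajc7, which bridges HSP70 and HSP90, differed by 0.34 and 0.33 and overlapped. Ahsa2, related to an HSP90 activator, differed by 0.24 without overlap. Hsbp1, which binds HSF1, differed by -0.24 and overlapped.

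The 7 stress sensors and regulators looked at here overlapped between genotypes. Hsf1 itself and Eif2s1, which encodes eIF2 alpha, had no probe set with their name in the annotation used and were not analysed. The eIF2 alpha kinases Eif2ak1 (HRI), Eif2ak2 (PKR), Eif2ak3 (PERK) and Eif2ak4 (GCN2) differed by 0.01, 0.11, 0.10 and 0.06, and Ern1 (IRE1) by 0.09. Atf6 differed by -0.11 and Hsf2, a relative of HSF1, by -0.05. Standard errors of these 7 genes lay between 0.153 and 0.245, so differences of the size seen in Wfs1 lay outside the confidence interval of each, the widest being -0.54 to 0.57 for Eif2ak1.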

How the data were processed

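The 6 arrays carry log2 expression values that the authors deposited, and the submitters' processing notes name RMA and affy 1.36.1. RMA is a method that subtracts background, makes the arrays' distributions alike and combines the probes of a set. The log2 scale was read from the values, while the sources used here give neither probe definition nor genome build. Scanner files were not used here, so it is unknown which probe sets rise above background, and RMA can shrink differences of dim ones. Precision is limited by having 6 arrays.

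Probe sets were named from the platform annotation, 23185 of 25206 with 1 gene, 0 with several and 2021 unnamed. Differences were tested with limma 3.58.1 (lmFit, eBayes, two-sided, no covariate) in R 4.3.3 over all probe sets, with Benjamini-Hochberg adjustment and a threshold of 0.05. No set test was run. Brighter probe sets have a mean above the median probe set, 2.81. Simulated data of the same size had independent normal noise in each probe set and no outlying array. The 200 changed genes all lay among the brighter probe sets. Of these, 79.1% of 67 changed by 1 log2 unit and 98.5% of 66 changed by 2 were recovered, with 13 of 25006 unchanged genes called. For genes changed by 0.5 log2 units 5.97% of 67 were recovered. These rates need not hold for the real arrays, where Tet2-/- replicate 6 stood apart and Wfs1, at -1.05, did not pass.

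Start windows came from RefSeq (GRCm38.p6). Members and lists were chosen with earlier results of these data known. Named were all members, the 4 pathway genes per list with the smallest p, the sensors, and promoters of leading members with a motif, to which Wfs1, Hspa5, Asns, Hspd1 and Hspe1 were added after values were seen. Other settings were the genotype field as grouping, a replicate block, trend and robust variances, array weights, 2 normalizations, brighter probe sets and leaving out each array.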

Additional observations from a re-analysis of the deposited data

How the results depend on the processing

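Wfs1 kept its direction, from -1.18 to -0.94, in every setting grouped by title, with a limma adjusted p of 0.0574 to 1. With groups taken from the genotype field, 32 of the 50 named genes turned sign, 17 of them members: Ddit3 0.01, Asns -0.26, Ddit4 -0.31, Shmt2 -0.27, Hspa5 0.013, Xbp1 -0.13, Dnajb9 0.19, Pdia4 -0.037, Creld2 -0.16, Wfs1 0.19, Hspa1a -0.08, Dnajb1 0.2, Hsp90aa1 -0.35, Hspb1 -0.51, Hspa8 0.1, Hspd1 -0.033 and Hspe1 0.027. The other pathway genes that turned were Eif2ak3 -0.05, Eif2ak4 -0.05, Atf3 0.11, Nupr1 -0.043, Pck2 -0.26, Gpt2 0.0033, Atf6 0.05, Edem2 0.15, Manf 0.27, Ssr1 -0.037, Fkbp11 0.26, Hsf2 0.16, Hsbp1 0.11, Dnajc7 -0.077 and Fkbp5 -0.19. Array weights turned Trib3 to 0.023, Hspa8 to 0.1, Atf6 to 0.052 and Hsf2 to 0.029, and median-centred arrays turned Vldlr to -0.0017 and Eif2ak1 to -0.012. Leaving out single arrays turned the sign of 10 members, with ranges of -0.22 to 0.31 for Asns, -0.023 to 0.12 for Creld2, -0.082 to 0.41 for Hspa1b, -0.19 to 0.14 for Hspa8, -0.46 to 0.19 for Hspe1, -0.17 to 0.0017 for Sdf2l1, -0.062 to 0.25 for Sesn2, -0.12 to 0.34 for Shmt2, -0.2 to 0.085 for Trib3 and -0.11 to 0.15 for Vldlr. It also turned Atf6 (-0.24 to 0.1), Eif2ak1 (-0.13 to 0.3), Eif2ak2 (-0.08 to 0.34), Eif2ak3 (-0.047 to 0.26), Eif2ak4 (-0.13 to 0.2), Ern1 (-0.048 to 0.23) and Hsf2 (-0.17 to 0.075). The cause was not tested.

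Probe sets past a limma adjusted p of 0.05 numbered 0 to 19 when single arrays were left out, 19 without Tet2-/- replicate 6, and 2 with array weights, which gave that array a weight of 0.297. Members at an unadjusted p under 0.05 numbered 1 to 6 when single arrays were left out, against 2.51% to 9.87% of all probe sets. With array weights there were 6 (19.4% of members), against 8.28% of all probe sets. Among brighter probe sets 1 member was so, against 3.66% of those probe sets, and by the genotype field 1, against 1.64% of all. At a threshold of 0.01 the count was 1, and the share over all probe sets was not counted. The median of the heat shock arm ran from -0.082 to 0.16 when single arrays were left out and was 0.1 with array weights, and its mean was 0.029. The median of the unfolded protein arm ran from -0.023 to 0.12, and its mean was -0.075. That of the integrated stress arm ran from -0.16 to -0.02 and was 0.023 with array weights, and its mean was -0.027.

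The labels do not state whether replicate numbers pair the samples, and 3 arrays per group cannot settle it. Over all probe sets, deviations of same-numbered arrays correlated at 0.15, -0.215 and 0.112. Those of differently numbered arrays of the 2 groups correlated at -0.363 to 0.362. Wfs1 had the same order in both groups, with replicate 5 lowest and replicate 6 highest. With the number as a replicate block, 0 probe sets again passed after adjustment. Again 2 members had an unadjusted p under 0.05, against 3.56% of all probe sets. The standard error of Wfs1 was 0.147 in place of 0.174, and its limma adjusted p was 0.342.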
